A study of Mus musculus with 4 samples.

Results

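The Ly49 receptors are a family of class I-sensing receptors of mouse natural killer (NK) cells, and the Klra genes encode them. The 9 family genes described here are Klra1, Klra3, Klra4, Klra5, Klra6, Klra7, Klra8, Klra9 and Klra10. They were picked by name, as the rows of the deposited tables that carry these symbols, out of 37310 genes. Of the 9, 7 encode inhibitory receptors: Klra1 (Ly49A), Klra3 (Ly49C), Klra5 (Ly49E), Klra6 (Ly49F), Klra7 (Ly49G), Klra9 (Ly49I) and Klra10 (Ly49J). The other 2, Klra4 (Ly49D) and Klra8 (Ly49H), encode activating receptors.

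NK cells were sorted from the marrow of 6 to 8 week old C57BL/6 mice by surface staining, as NK1.1+ and CD49b+ cells without CD3e, and their RNA was sequenced. The dKO group held 2 libraries from mice deficient in both the long form of Gabpb1 and Gabpb2 (Gabpb1l-/-Gabpb2-/-), and the Ctrl group held 2 libraries from littermate controls. Gabpb1 and Gabpb2 encode the partner subunits of GABP alpha, an Ets-family protein that binds DNA at a GGAA core, and the long form of Gabpb1 and Gabpb2 allow the complex to form a tetramer. The labels name no Cre or cell-type promoter, and they do not say how many animals gave each library.

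Ly49 receptors are lectin-like proteins that sit on the cell surface in pairs. Inhibitory members carry a tyrosine motif (ITIM) near the amino terminus that recruits the phosphatase SHP-1 when the receptor meets class I MHC, and this restrains killing. Activating members lack that motif and signal through the adaptor DAP12, the product of Tyrobp, to the kinases Syk and ZAP-70. Each NK cell expresses its own mixture of members, gained during development in the marrow, so a sorted population is a mosaic. In bulk RNA, fewer cells that express a gene and less RNA per cell cannot be told apart.

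The split between inhibitory and activating members is written in the first coding bases. The first 60 coding bases of each gene are shown because they hold that difference. They come from GENCODE M21 on GRCm38, where all 9 genes lie on the minus strand of chromosome 6, and are written 5′ to 3′ in lower case. Capitals mark codon 8, the place of the motif tyrosine in inhibitory members.
Klra1: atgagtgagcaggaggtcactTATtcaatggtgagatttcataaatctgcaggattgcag
Klra3: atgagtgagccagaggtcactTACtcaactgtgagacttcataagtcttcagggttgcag
Klra5: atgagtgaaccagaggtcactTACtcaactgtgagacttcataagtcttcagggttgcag
Klra6: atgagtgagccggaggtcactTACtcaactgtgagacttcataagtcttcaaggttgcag
Klra7: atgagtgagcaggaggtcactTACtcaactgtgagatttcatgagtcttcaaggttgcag
Klra9: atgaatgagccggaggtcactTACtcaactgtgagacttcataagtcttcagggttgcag
Klra10: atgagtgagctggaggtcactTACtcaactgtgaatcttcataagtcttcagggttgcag
Klra4: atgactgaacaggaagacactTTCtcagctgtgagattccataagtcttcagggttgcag
Klra8: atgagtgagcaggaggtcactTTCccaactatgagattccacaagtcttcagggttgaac
Codon 8 is a tyrosine codon in all 7 inhibitory members, TAT in Klra1 and TAC in the other 6. It is the phenylalanine codon TTC in both activating members, Klra4 and Klra8.

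The genes form a single cluster in the NK gene complex. On GRCm38, Klra5 spans chr6:129898996-129917650, Klra6 chr6:130013033-130026954 and Klra4 chr6:130043731-130067271. Klra8 follows at chr6:130115226-130129898, Klra9 at chr6:130178675-130193112 and Klra7 at chr6:130218605-130233322. Klra10 lies at chr6:130269194-130281928, Klra3 at chr6:130323289-130337574 and Klra1 at chr6:130363917-130386874. The build behind the counts was mm9 per the submitters' processing notes, so these positions were found by Ensembl identifier and are not coordinates of the counted annotation.

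The members are close copies of each other. The coding sequences of Klra9 and Klra10 were 96.9% identical over 798 aligned bases, those of Klra3 and Klra10 96.2%, and those of Klra3 and Klra9 95.9%. Klra5 and Klra6, a pair of neighbours, were 91.8% identical. Klra8 was closest to Klra9, also at 91.8%, although the one receptor activates and the other inhibits. Klra1 and Klra4, again an inhibitory and an activating gene, were each other's closest relatives at 88.3%. The lowest identity of any pair was 76.6%, between Klra4 and Klra10. These identities bear on every value below, since a short read from a shared stretch cannot be assigned to 1 gene.

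The upstream sequences were also read, because GABP belongs to the Ets family. The 120 bases before the start of transcription are shown for 5 members, written 5′ to 3′ along the minus strand from RefSeq on GRCm38.p6. Capitals mark every GGAA core or its reverse complement TTCC. Each stretch shown holds 2 or 3 such cores. The stretches of the other members are not shown, and held 3 in Klra5 and 1 each in Klra3, Klra9 and Klra10.
Klra6, chr6:130026955-130027074: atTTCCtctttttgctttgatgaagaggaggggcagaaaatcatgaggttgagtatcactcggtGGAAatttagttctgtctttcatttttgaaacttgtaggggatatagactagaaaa
Klra4, chr6:130067272-130067391: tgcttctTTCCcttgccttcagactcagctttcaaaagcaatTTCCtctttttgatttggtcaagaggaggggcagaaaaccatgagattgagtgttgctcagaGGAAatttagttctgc
Klra8, chr6:130129899-130130018: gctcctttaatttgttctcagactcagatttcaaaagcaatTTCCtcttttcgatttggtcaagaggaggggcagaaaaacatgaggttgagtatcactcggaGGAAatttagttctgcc
Klra7, chr6:130233323-130233442: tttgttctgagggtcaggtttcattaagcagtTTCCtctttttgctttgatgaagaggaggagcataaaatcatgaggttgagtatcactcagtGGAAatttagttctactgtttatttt
Klra1, chr6:130386875-130386994: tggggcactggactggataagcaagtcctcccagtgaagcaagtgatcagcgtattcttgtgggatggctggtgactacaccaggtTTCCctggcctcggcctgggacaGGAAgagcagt
RefSeq gave 11 promoter windows for the 9 members, each from 250 bases before to 50 bases after a start. The letters CCGGAAGT, a full GABP site, were in 0 of the 11 windows on either strand and in 3.89% of all 32851 promoter windows. The shorter CGGAAG, which lies within CCGGAAGT, was in 0 of the 11 and in 16.9% of all windows. GGAA alone was in all 11 windows and in 96.0% of all windows, and GGAAG was in 2 of the 11, belonging to Klra1 and to a window of Klra7 that is not shown, against 71.4% of all. Of all 10-letter words starting with GGAA, 2 were held by the most member windows, 7 each. GGAAATTTAG was in windows of Klra4, Klra5, Klra6, Klra7, Klra8 and Klra9, and in 0.0852% of all windows. GGAAATTGCT was, on one strand or the other, in windows of Klra3, Klra4, Klra5, Klra6, Klra8 and Klra9, and in 0.14% of all windows. Klra1 and Klra10 held neither word. Both words were chosen from these sequences, and the windows of copied genes are not independent of each other.

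The libraries held 31469644 and 30233870 gene counts in dKO, against 34724516 and 33299226 in Ctrl. Gabpb2 had 2.65 and 2.85 CPM (TMM-scaled counts per 1000000) in dKO, against 36.5 and 30.4 in Ctrl, with a log2 fold change of -3.61 (SE 0.26, edgeR adjusted p = 0.00126). Gabpb1 had 81.2 and 79.4 CPM in dKO, against 57.1 and 52.0 in Ctrl, with a log2 fold change of 0.56 (SE 0.17, edgeR adjusted p = 0.273). It was higher in both dKO libraries, as were 21.7% of all genes. The count of the whole Gabpb1 gene does not check its long form. The sexes differed between the groups: the Y-linked gene Ddx3y had 278 and 224 CPM in dKO and a count of 0 in both Ctrl libraries, while Xist had 0.0622 and 0.298 CPM in dKO against 178 and 194 in Ctrl. Genotype and sex therefore cannot be told apart in any comparison here. NK markers were abundant in all libraries, and 5 of them summed to 3782 and 3893 CPM in dKO against 4613 and 4422 in Ctrl, without overlap and with 0 of 5 called. Among markers of other cells, the summed level of 6 T cell genes was 45.5 and 72.1 CPM in dKO and 193 and 208 in Ctrl, and none of the 6 was at 0. Of the 6, 2 (Cd3e and Trac) were called lower, where 0.295% of all genes were. The CPM of 5 of the 6 was lower in both dKO libraries, where 19.9% of all genes were, and Cd4 overlapped. The summed levels of the B, neutrophil and erythroid lists overlapped between the groups. Within the neutrophil list, 2 of 6 genes, both of early granule formation, were lower in both dKO libraries, as were 19.9% of all genes. Mpo had 59.7 and 55.5 CPM in dKO against 348 and 104 in Ctrl (edgeR adjusted p = 0.155). Elane had 20.9 and 15.7 CPM in dKO against 106 and 39.4 in Ctrl (edgeR adjusted p = 0.112, and DESeq2 called it). Without the first Ctrl library, the log2 fold change was -0.85 for Mpo and -1.11 for Elane, against -1.97 and -1.985 over all libraries. The 4 monocyte and dendritic genes summed to 311 and 434 CPM in dKO against 623 and 590 in Ctrl, with 0 of 4 called. Of these, 1 was lower in both dKO libraries, as were 19.9% of all genes. This was Ly6c2, at 104.1 and 186.6 CPM in dKO against 347.4 and 348.5 in Ctrl. The other 3 (Csf1r, Siglech and Itgax) overlapped between the groups.

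All 9 members passed the filter on low counts, and 0 of 9 was called by edgeR at an adjusted p under 0.05, while 0.611% of the 13904 genes tested were called in either direction and 0.295% were called lower in dKO. At an unadjusted p under 0.05 there were 3 members lower in dKO (Klra1, Klra5 and Klra6), where 5.34% of all genes were, and 1 higher (Klra4), where 5.24% were. The CPM of the 2 groups did not overlap for these same 3 lower members, against 19.9% of all genes, and for 2 higher members, Klra4 and Klra9, against 21.7%. The median log2 fold change of the 9 members was -0.18, beside 0.01 over all genes tested. DESeq2 called 3 of the 9, Klra1, Klra5 and Klra6, all lower in dKO, where it called 1.55% of all genes lower and 2.92% in either direction. Without the filter on low counts, edgeR also called these 3, where 1.3% of genes were called lower and 2.4% in either direction. The p-values set the group difference against a spread between libraries that is estimated partly over all genes. An exact two-sided permutation of 2 against 2 libraries cannot go below 0.333.

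**Figure D1:**
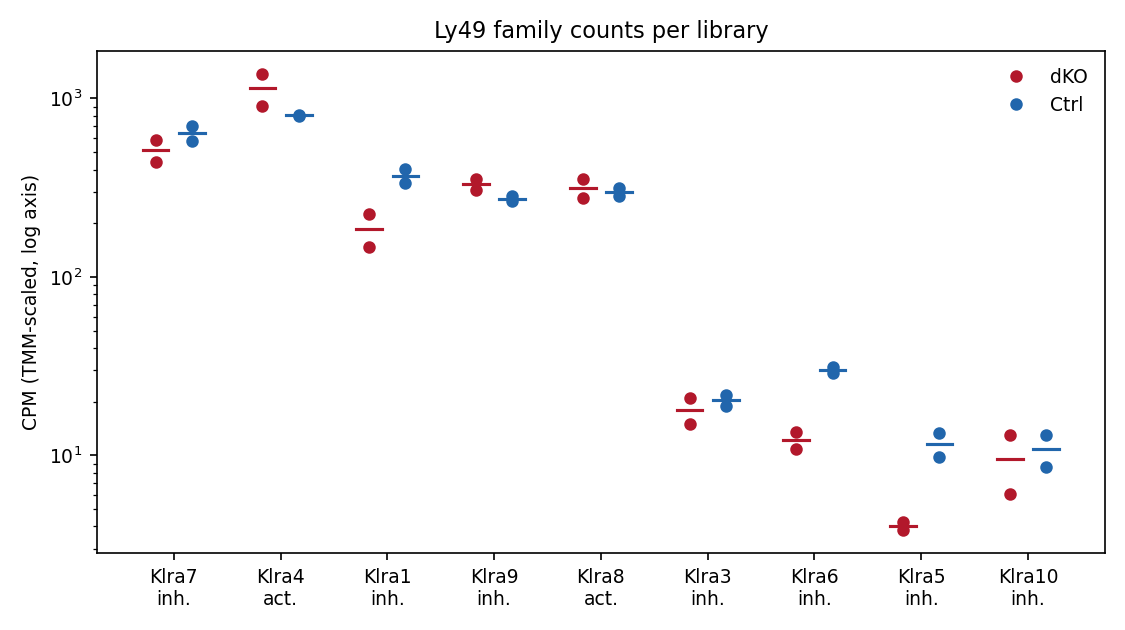
CPM (TMM-scaled, log axis) of the 9 Ly49 genes in the 2 dKO libraries (red, left of each pair) and the 2 Ctrl libraries (blue). Points are libraries and bars are group means; genes are ordered by their mean TPM in Ctrl, and Klra1, Klra6 and Klra5 show both dKO points below both Ctrl points.

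Klra6 (Ly49F), an inhibitory receptor with weak known class I binding, had 10.9 and 13.6 CPM in dKO, against 31.4 and 29.1 CPM in Ctrl. Both dKO libraries were below both Ctrl libraries, and the 2 libraries within each group were close together. The log2 fold change was -1.31 (SE 0.23), a 2.48-fold lower level, with an edgeR adjusted p of 0.0605. It was the smallest adjusted p in the family and lay just above the threshold. On RSEM expected counts the same test gave -1.37 with an adjusted p of 0.0352, past the threshold, where 0.469% of genes were called lower. Limma-voom, which called 0.453% of genes lower, gave an adjusted p of 0.0431. EdgeR with a minimum count of 50, which called 0.649% lower, gave 0.0377, and DESeq2 gave an adjusted p of 0.000143. EdgeR without the filter on low counts, which called 1.3% of genes lower, gave an adjusted p of 0.000153. The remaining alternatives stayed above the threshold. The edgeR adjusted p was 0.0579 to 0.0619 under the other scalings, 0.0571 in the fit that is not robust and 0.0856 with the replicate block. Leaving out 1 library at a time gave log2 fold changes between -1.16 and -1.48. In TPM, which scales for transcript length and library size, Klra6 had 19.6 and 20.7 in dKO against 51.8 and 53.2 in Ctrl.

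Klra5 (Ly49E), the receptor best known from fetal NK cells, had 4.26 and 3.81 CPM in dKO, against 13.4 and 9.82 CPM in Ctrl. Both dKO libraries were again below both Ctrl libraries, at counts of 137 and 115 in dKO against 456 and 326 in Ctrl. The log2 fold change of -1.52 (SE 0.32) was the largest in size among the 9, a 2.88-fold lower level, with an edgeR adjusted p of 0.11. DESeq2 gave an adjusted p of 0.00411. Klra5 and Klra6 are neighbours on the chromosome and close relatives in sequence, and both had lower values in dKO. Klra4, the member on the other side of Klra6, had a log2 fold change of 0.51. Klra9, 91.6% identical to Klra6, had 0.28. Klra1, also lower in dKO, lies at the other end of the cluster. A link of the values with position or sequence was not tested. In TPM, Klra5 had 7.52 and 6.97 in dKO against 23.3 and 18.4 in Ctrl.

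Klra1 (Ly49A), the founding member of the family and a receptor for H-2D molecules of other strains, had 147 and 224 CPM in dKO, against 403 and 335 CPM in Ctrl. The groups did not overlap, although the 2 dKO libraries differed from each other. The log2 fold change was -0.99 (SE 0.22), a 1.99-fold lower level, with an edgeR adjusted p of 0.128 and a DESeq2 adjusted p of 0.00143. Leaving out 1 library at a time gave -1.33 without the second dKO library, with an edgeR adjusted p of 0.0269, and -0.72 without the first, with an adjusted p of 0.299. Without the first Ctrl library it was -0.86 and without the second -1.12, and neither passed the threshold. Klra1 is expressed at a far higher level than Klra5 and Klra6: its TPM was 296 ± 53 in dKO and 588 ± 62 in Ctrl (SD, n = 2 each).

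Genes of late NK maturation had lower values beside these 3. Summed over Klrg1, Itgam, Cx3cr1, Zeb2 and Cma1, the level was 236 and 222 CPM in dKO and 570 and 456 CPM in Ctrl, and 4 of the 5 were called lower, where 0.295% of all genes were. Summed over 4 genes of immature NK cells (Cd27, Kit, Ltb and Tcf7), it was 1052 and 1149 CPM in dKO and 828 and 914 CPM in Ctrl, with 0 of 4 called. Of these, Cd27 and Ltb were higher in both dKO libraries, as were 21.7% of all genes. Kit and Tcf7 overlapped between the groups. The summed T cell genes, and the summed monocyte and dendritic genes, were also lower in both dKO libraries, as given above. Of the monocyte and dendritic genes, only Ly6c2 was itself lower in both dKO libraries. The part of these other differences in the Klra1, Klra5 and Klra6 values was not tested.

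The CPM of the remaining inhibitory members was not lower in both dKO libraries. Klra7 (Ly49G), another receptor for H-2D molecules, had 441 and 583 CPM in dKO, against 703 and 580 CPM in Ctrl. The higher dKO library lay between the 2 Ctrl libraries, and the log2 fold change was -0.33 (SE 0.19, edgeR adjusted p = 0.621). In TPM the groups did not overlap, at 1365 and 1352 in dKO against 1721 and 1412 in Ctrl. Klra9 (Ly49I), which binds H-2K of the b haplotype carried by C57BL/6, had 308 and 355 CPM in dKO, against 282 and 265 CPM in Ctrl. Here both dKO libraries were above both Ctrl libraries, with a log2 fold change of 0.28 (SE 0.15, edgeR adjusted p = 0.599).

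Klra3 (Ly49C), the other main receptor for H-2K of that haplotype, had 14.9 and 21.1 CPM in dKO, against 21.8 and 19.0 CPM in Ctrl. The groups overlapped, with a log2 fold change of -0.18 (SE 0.26, edgeR adjusted p = 0.878). Klra10 (Ly49J) had 13 and 6.06 CPM in dKO, against 13 and 8.59 CPM in Ctrl. Its first library in each group was the higher one, the groups overlapped, and the log2 fold change was -0.18 (SE 0.41, edgeR adjusted p = 0.931). These tests do not show that the levels were equal.

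Both activating members had estimates above 0. Klra4 (Ly49D), which signals through DAP12 and recognises class I molecules of other strains and of hamster, had 912 and 1379 CPM in dKO, against 809 and 802 CPM in Ctrl. Both dKO libraries exceeded both Ctrl libraries, the second by far more than the first. The log2 fold change was 0.51 (SE 0.20), with an unadjusted p of 0.0375 and an edgeR adjusted p of 0.430. Without the second dKO library the estimate was 0.18. Klra8 (Ly49H), the receptor for the m157 protein of mouse cytomegalovirus, had 276 and 355 CPM in dKO, against 284 and 313 CPM in Ctrl. The dKO libraries lay on either side of the Ctrl libraries, and the log2 fold change was 0.08 (SE 0.17, edgeR adjusted p = 0.927). In TPM it had 495 and 521 in dKO against 446 and 469 in Ctrl, without overlap.

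**Figure D2:**
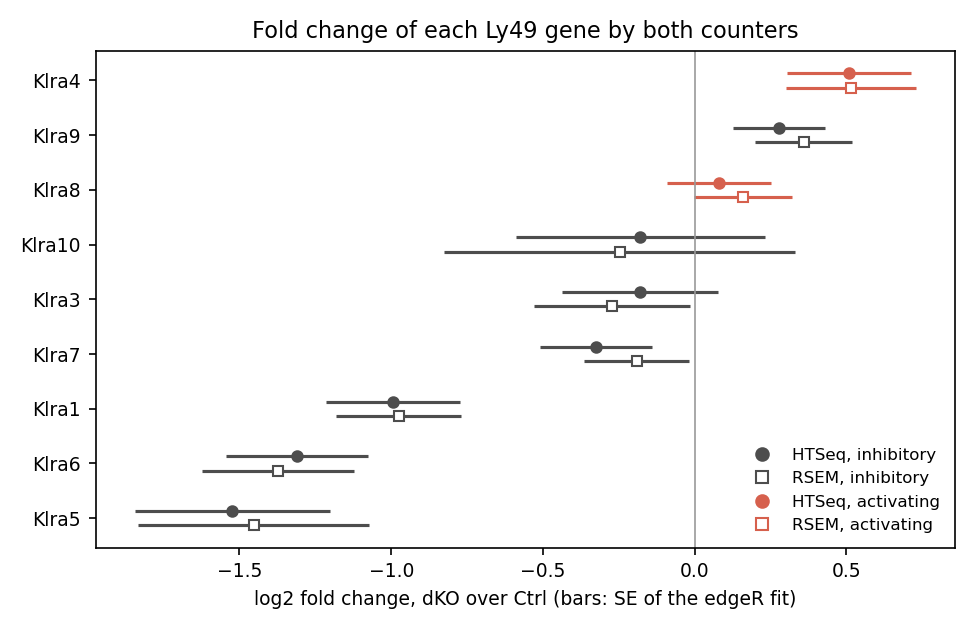
Log2 fold change, dKO over Ctrl, of each Ly49 gene from HTSeq counts (filled circles) and RSEM expected counts (open squares); bars are the SE of the edgeR fit, grey marks inhibitory and red activating members. Klra5, Klra6 and Klra1 lie near or beyond -1 by both counters, and Klra4, Klra9 and Klra8 lie above 0 by both.

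The summed level of the family overlapped between the groups. Summed over the 9 members, the level was 2128 and 2942 CPM in dKO, against 2562 and 2362 CPM in Ctrl. The dKO libraries lay outside the Ctrl range on opposite sides. The members together took 0.217% and 0.294% of gene counts in dKO, against 0.251% and 0.235% in Ctrl.

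The make-up within that sum differed between the groups. Activating transcripts took 43.9% and 48.7% of the summed member TPM in dKO, against 34.2% and 37.8% in Ctrl, and the groups did not overlap. The ratio of activating to inhibitory TPM was 0.782 and 0.950 in dKO, against 0.521 and 0.607 in Ctrl, a difference of 0.62 on the log2 scale. On HTSeq counts the ratio was 1.27 and 1.44 in dKO, against 0.745 and 0.894 in Ctrl, a difference of 0.72 on the log2 scale. A ratio within a library does not depend on how libraries are scaled to each other. It is a score over the members and carries no p-value.

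**Figure D3:**
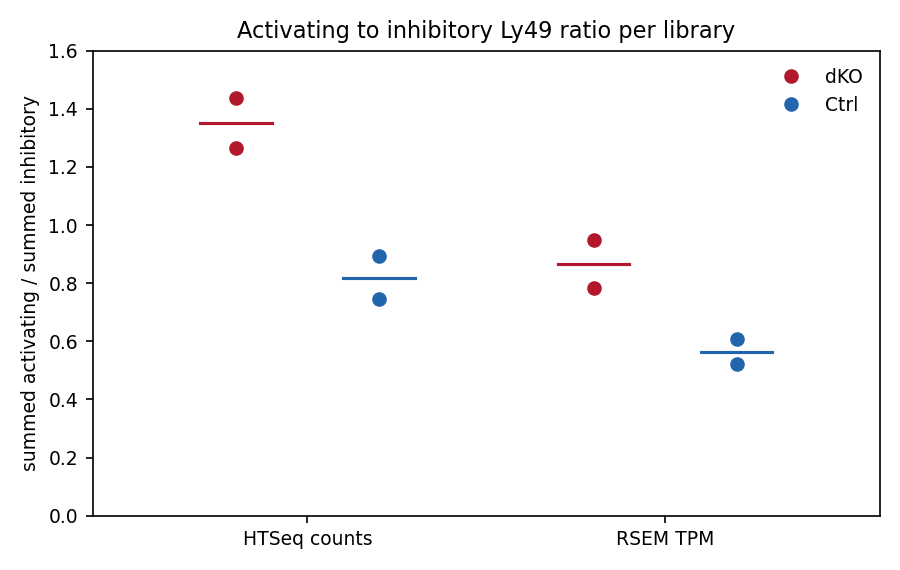
Ratio of summed activating (Klra4, Klra8) to summed inhibitory Ly49 transcripts in each library, from HTSeq counts and from RSEM TPM; dKO is red and left of Ctrl in blue, and bars are group means. In both measures the 2 dKO points (0.782 and 0.950 in TPM) lie above the 2 Ctrl points (0.521 and 0.607).

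Both sides of the ratio differed in TPM. Summed activating TPM was 1970 and 2539 in dKO, against 1684 and 1702 in Ctrl. Klra4 made up most of it, with a mean of 1746 in dKO and 1236 in Ctrl, beside 508 and 457 for Klra8. Summed inhibitory TPM was 2518 and 2672 in dKO, against 3236 and 2803 in Ctrl. The groups overlapped for neither sum. By RSEM CPM, which is not scaled for length, the inhibitory sums did overlap, at 1238 and 1496 in dKO against 1745 and 1448 in Ctrl. They also overlapped by RSEM FPKM, which is scaled for length, at 1605 and 1856 in dKO against 2157 and 1786 in Ctrl.

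Klra4 and Klra1, each other's closest relatives, were set against each other after their values were seen. The ratio of Klra4 to Klra1 counts was 6.22 and 6.16 in dKO, against 2.01 and 2.39 in Ctrl, a difference of 1.5 on the log2 scale. In TPM it was 5.71 and 6.06 in dKO, against 1.96 and 2.27 in Ctrl. The 2 libraries of a group agreed closely, and the groups were far apart by both counters. The ratio of a second activating and inhibitory pair of close relatives, Klra8 to Klra9, lay in the opposite direction, lower in both dKO libraries. It was 0.897 and 0.999 in dKO, against 1.01 and 1.18 in Ctrl, a difference of -0.20 on the log2 scale.

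Levels can be ranked between genes only per length. By mean TPM the order in dKO was Klra4 (1746), Klra7 (1359), Klra9 (735), Klra8 (508), Klra1 (296), Klra3 (172), Klra6 (20.2), Klra5 (7.25) and Klra10 (5.67). The order in Ctrl was Klra7 (1566), Klra4 (1236), Klra1 (588), Klra9 (574), Klra8 (457), Klra3 (212), Klra6 (52.5), Klra5 (20.8) and Klra10 (6.5). In dKO the neighbours Klra5 and Klra10 overlapped in their libraries, and in Ctrl the neighbours Klra1 and Klra9 did. All other neighbours were apart in their 2 libraries. Klra4 stood first in dKO and second in Ctrl, and Klra1 stood below Klra9 and Klra8 in dKO and level with Klra9 in Ctrl. By TPM the last 4 places, from Klra3 to Klra10, had the same order in both groups, but these places include Klra3 and Klra10, whose levels differ between the counters as given below.

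**Figure D4:**
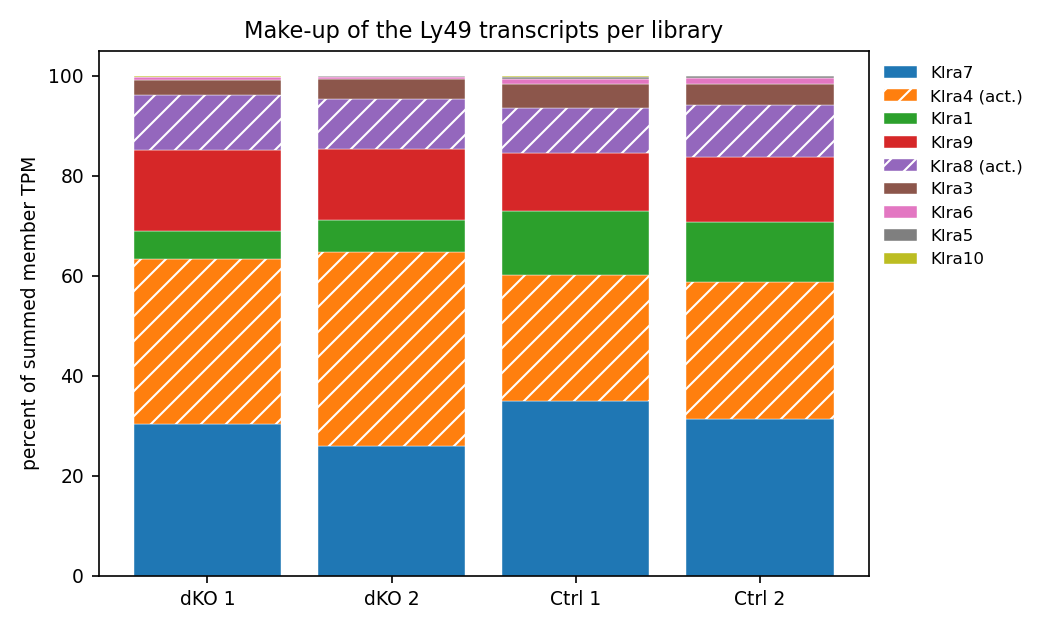
Percent of the summed TPM of the 9 Ly49 genes that each gene took in the 2 dKO libraries (left) and the 2 Ctrl libraries (right); hatched segments are the activating genes. Klra4 took 32.9% and 38.7% in dKO against 25.2% and 27.4% in Ctrl, and Klra1 took 5.76% and 6.39% in dKO against 12.8% and 12.1% in Ctrl.

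As a share of the summed member TPM, Klra4 took 32.9% and 38.7% in dKO, against 25.2% and 27.4% in Ctrl. Klra1 took 5.76% and 6.39% in dKO, against 12.8% and 12.1% in Ctrl. Klra7 took 30.4% and 26.0% in dKO, against 35.0% and 31.3% in Ctrl. Among the inhibitory members, Klra9 took a larger share in dKO, at 16.1% and 14.4%, against 11.5% and 12.9% in Ctrl. Klra3, at 3.08% and 3.97% in dKO against 4.75% and 4.21% in Ctrl, took a smaller one. Klra6 took 0.437% and 0.397% in dKO, against 1.05% and 1.18% in Ctrl, and Klra5 took 0.168% and 0.134% in dKO, against 0.473% and 0.408% in Ctrl. The shares of all these 7 members did not overlap between the groups, and those of Klra8 and Klra10 did. In CPM, 19.9% of all genes were lower in dKO without overlap and 21.7% were higher. A matching figure for shares within a gene family was not computed. Shares within 1 library sum to a whole, so they do not vary independently of each other.

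Because the members share sequence, the 2 counters were set against each other. HTSeq counts reads that fall in a gene, and RSEM splits a read that could come from several transcripts among them by a model. Over genes with more than 50 expected counts, the median ratio of the HTSeq count to the RSEM expected count was 2.05 to 2.07 in the 4 libraries. The 5th percentile lay between 1.12 and 1.18 and the 95th between 2.57 and 2.73. Klra4 (2.12), Klra6 (2.19), Klra8 (2.19) and Klra1 (1.92) had mean ratios near that median. Klra7 (1.62) and Klra9 (1.64) were lower but within the range, and Klra5 was higher, at 2.67. The Klra5 ratio was 3.04 and 2.25 in the dKO libraries, and 2.67 and 2.72 in the Ctrl libraries. It was above these 95th percentiles in 3 of the 4 libraries, all but the second dKO library. This depended on the limit of 50, and Klra5 itself had only 45 expected counts in the first dKO library. At a limit of 500 the same 3 libraries were above. At a limit of 10, Klra5 was under the 95th percentile in all 4 libraries. That percentile was then 3.122 in the first dKO library, and 2.875 and 2.923 in the Ctrl libraries.

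Klra3 and Klra10 stood outside that range in every library. The Klra10 ratio was 9.69 ± 1.26 (SD over the 4 libraries), at percentile 99.9 of all genes, so HTSeq gave this gene several times more reads than RSEM. The Klra3 ratio was 0.400 ± 0.043 (SD over the 4 libraries), at percentile 2.66, so RSEM gave it more reads than HTSeq. Klra3, Klra9 and Klra10 are the 3 most alike coding sequences of the family. The level of Klra3 against Klra10 therefore depends on the counter. Summed over the 3, a grouping chosen after the data were seen, the ratio was 1.51 and 1.36 in dKO, against 1.38 and 1.40 in Ctrl. Klra9 makes up most of that sum, with 9911 of 10809 HTSeq counts in the first dKO library. The summed ratio was 0.686 of the median of all genes, further from the median than Klra9 alone at 0.795.

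**Figure D5:**
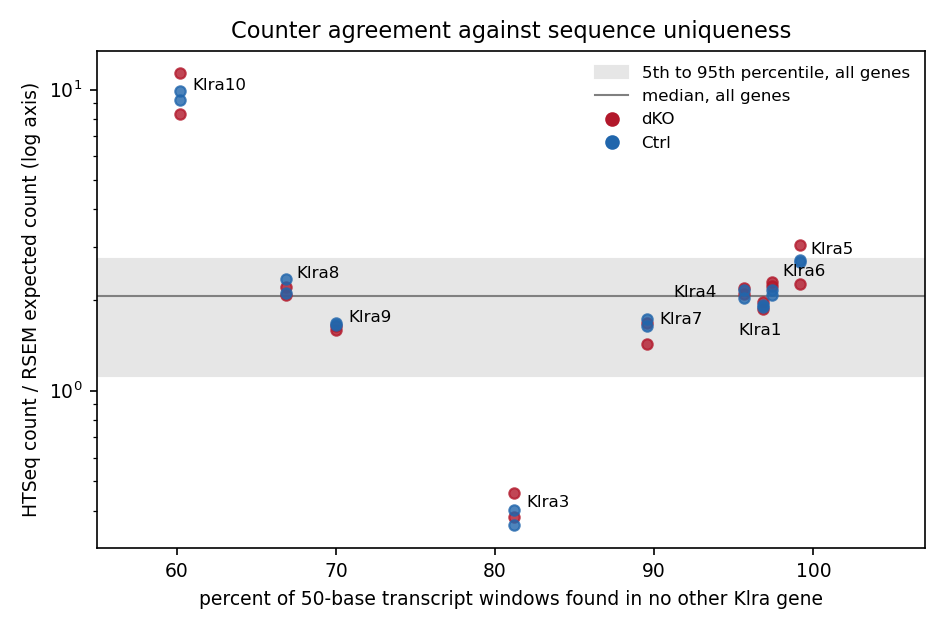
HTSeq count over RSEM expected count (log axis) of each Ly49 gene in the dKO (red) and Ctrl (blue) libraries, against the percent of its 50-base transcript windows that occur in no other Klra gene. The grey band is the 5th to 95th percentile of genes with more than 50 expected counts. Klra10 lies above it and Klra3 below it in every library, while Klra8 lies inside it.

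The share of each transcript that is its own was measured by cutting it into every 50-base window and looking for that window in the transcripts of 14 Klra genes. Unique windows made up 60.2% of Klra10, 66.9% of Klra8, 70.0% of Klra9, 81.2% of Klra3 and 89.5% of Klra7. They made up 95.7% of Klra4, 96.8% of Klra1, 97.4% of Klra6 and 99.2% of Klra5. The 3 members with unadjusted p under 0.05 that were lower in dKO, and Klra4, were thus those with the most unique sequence. Klra8 had few unique windows and a ratio near the median, so the share of unique windows alone did not order the ratios. With windows of 100 bases, 85.6% of Klra8, 94.8% of Klra10 and a larger share of every other member were unique.

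Fold changes differed little between the counters. All 9 members had the same sign by HTSeq and by RSEM, and the largest difference was 0.13 on the log2 scale, for Klra7. The 2 counters read the same libraries, so this is not a replicate of the comparison.

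Klra genes outside the set of 9 were looked at in the same fit. Klra23, as the files name it, is a transcribed pseudogene (Klra13-ps) in GENCODE M21. It had 412 and 253 CPM in dKO, against 392 and 342 CPM in Ctrl, with a log2 fold change of -0.14. Its HTSeq count was 3.96 times its RSEM expected count, above the range of all genes. Klra2 (Ly49B), found mainly on myeloid cells, had 2.30 and 3.18 CPM in dKO, against 1.67 and 1.02 CPM in Ctrl (log2 fold change 1.02, SE 0.54, edgeR adjusted p = 0.584). Klra17 (Ly49Q), known from plasmacytoid dendritic cells, stayed at or under 1.36 CPM in every library.

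Genes that act with Ly49 receptors were taken from lists of 28 genes: adaptors and kinases, phosphatases, class I ligands, transcription factors, other lectin-like receptors of the NK gene complex, and Klra2 and Klra17. Of the 28, 0 were called by edgeR at an adjusted p under 0.05, beside 0.611% of all genes. At an unadjusted p under 0.05 there was 1 higher in dKO (Nfil3) and 3 lower (Zap70, Ptpn11 and Klri1), where 5.24% of all genes were higher and 5.34% lower. The median log2 fold change was 0.02. DESeq2 called 2 of them, Nfil3 higher and Klri1 lower in dKO, beside 2.92% of all genes called in either direction.

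On the activating side, Tyrobp, which encodes DAP12, had 23.6 and 29.3 CPM in dKO, against 24.7 and 20.2 CPM in Ctrl, overlapping groups with a log2 fold change of 0.24 (SE 0.23). Hcst, the gene of the related adaptor DAP10, had 37.2 and 42.2 CPM in dKO, against 32.0 and 28.6 CPM in Ctrl (0.39, SE 0.20). The kinase gene Zap70 had 228 and 221 CPM in dKO, against 306 and 292 CPM in Ctrl, without overlap (-0.41, SE 0.14, edgeR adjusted p = 0.353). Syk, listed as Sykb in the files, had 118 and 135 CPM in dKO, against 109 and 119 CPM in Ctrl (0.15, SE 0.16). Of these 4 adaptor and kinase genes, 0 were called.

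On the inhibitory side, Ptpn6, which encodes SHP-1, had 249 and 232 CPM in dKO, against 303 and 259 CPM in Ctrl (log2 fold change -0.22, SE 0.16, edgeR adjusted p = 0.698). Ptpn11, which encodes the related SHP-2, had 38.1 and 60.7 CPM in dKO, against 69.4 and 78.1 CPM in Ctrl (-0.58, SE 0.24, edgeR adjusted p = 0.450). Both genes had lower values in both dKO libraries than in both Ctrl libraries, as did 19.9% of all genes. The third phosphatase gene, Inpp5d, which encodes SHIP-1, had 828 and 690 CPM in dKO, against 756 and 867 CPM in Ctrl, and the groups overlapped. For the class I ligands, H2-K1 had 4966 and 5318 CPM in dKO, against 4995 and 4532 CPM in Ctrl, and B2m, the shared light chain, had 1615 and 2429 CPM in dKO, against 2766 and 2409 CPM in Ctrl. The groups overlapped for both.

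Among 7 transcription factors with a known part in NK development or Ly49 expression, 0 were called. Nfil3, needed for the NK lineage to form, had 225 and 248 CPM in dKO, against 158 and 115 CPM in Ctrl, without overlap (log2 fold change 0.79, SE 0.19, edgeR adjusted p = 0.156, DESeq2 adjusted p = 0.0160). Tbx21, which encodes the maturation factor T-bet, had 749 and 793 CPM in dKO, against 997 and 891 CPM in Ctrl (-0.29, SE 0.15). Tcf7, which encodes TCF-1, a factor that acts at Ly49 genes such as Klra1, had 291 and 351 CPM in dKO, against 252 and 309 CPM in Ctrl, overlapping groups (0.19, SE 0.17).

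Of 9 other lectin-like receptor genes of the NK gene complex, 0 were called. Klri1, which encodes a subunit that pairs with the Klre1 product, had 25.0 and 28.2 CPM in dKO, against 58.9 and 37.5 CPM in Ctrl, without overlap (log2 fold change -0.86, SE 0.25, edgeR adjusted p = 0.261, DESeq2 adjusted p = 0.0494). Klrc1, the gene of the inhibitory NKG2A, had 304 and 381 CPM in dKO, against 411 and 428 CPM in Ctrl (-0.29, SE 0.16). The other 7 had log2 fold changes between -0.26 and 0.07.

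The genes outside the family whose pattern over the 4 libraries was most like that of the summed members were Mrps18c, Ptdss1 and D2Ertd750e. Likeness was the root mean square difference of centred log2 CPM, which was 0.0199 for Mrps18c, 0.0208 for Ptdss1 and 0.0269 for D2Ertd750e. With 4 libraries many genes come close, and 302 of 8154 genes lay within 0.1.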

How the data were processed

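Libraries were made by Smart-seq2, per the labels' protocols. The submitters' processing notes list the aligner TopHat2 2.1.1, the counters HTSeq 0.6.1 and RSEM 1.3.0, and the build mm9. The sources used here do not give the strand setting or state how reads shared by close copies were treated. In every library the HTSeq counts held 0% under reads without a unique alignment. Whether such reads were removed before counting is not stated. HTSeq-format counts were deposited for each gene beside a table with RSEM expected counts, TPM and FPKM, per the file headers. Rows that name no gene (no feature 18.1% to 24.3% of counted reads) were left out of totals and tests. FPKM values, which the authors deposited, entered only as an alternative for the sums.

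Counts were tested with edgeR 4.0.16 (quasi-likelihood, robust, TMM) in R 4.3.3 after filtering at a minimum count of 10 (13904 genes kept). P-values were adjusted over all of them by Benjamini-Hochberg, with a threshold of 0.05. SEs were derived from the fold change and its F value. RSEM expected counts were rounded before testing. The procedure was tested on simulated data. Alternatives were DESeq2 1.42.0, limma-voom (limma 3.58.1), other scalings and filters, a fit that is not robust, RSEM counts, a replicate block and leaving out each library. The 2 libraries of each group differed by more than sampling noise, and the series design calls them biological replicates. Sequences were compared with Biopython 1.88.

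The members and lists were chosen with earlier results of these data known. Named were the 9 members, Gabpb1, Gabpb2, the genes of each partner list with the smallest p, and the 3 genes most like the summed members. Tyrobp, Sykb, Tcf7, Klra23, Ddx3y, Xist, Mpo, Elane and Inpp5d were named beside them for their role.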

Additional observations from a re-analysis of the deposited data

How the results depend on the processing

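The count of members called, 0 by the edgeR fit, was 3 with no filter on low counts, 3 by DESeq2, and 1 each with a minimum count of 50, by limma-voom and on RSEM expected counts; it ranged from 0 to 1 when 1 library was left out. All of these calls were lower in dKO, and Klra6 was among them except in the fit without the second dKO library, which called Klra1 alone. It stayed at 0 under the other scalings, the fit that is not robust and the replicate block. Over all genes, 85 were called, against 559 with no filter, 147 with a minimum count of 50 and 404 by DESeq2, and 73 to 187 when 1 library was left out; the highest came without the second Ctrl library. Of the partner genes, 2 were called with no filter and 2 by DESeq2. The cause of these differences was not tested. The replicate numbers are not said to pair the libraries, and deviations of same-numbered libraries correlated at -0.0957. With the replicate number as a block, 0 members and 100 genes were called.

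Leaving out 1 library turned the sign of some small estimates. The range over those fits was -0.46 to 0.049 for Klra3, -0.84 to 0.27 for Klra10, -0.11 to 0.25 for Klra8, -0.54 to 0.16 for Klra23, -0.23 to 0.028 for Inpp5d and -0.92 to 2.01 for Klra17. No other member changed sign, nor did Gabpb2, Mpo, Elane or the partner genes given with a fold change of their own. Over all alternatives 2 to 5 of the 6 T cell genes and 2 to 5 of the 5 late maturation genes were called lower; the maturation count was 2 without the first dKO library. The log2 ratio of the summed level, 0.04 over all libraries, ranged from -0.21 to 0.26 when 1 library was left out, lowest without the second dKO library. The difference in the activating to inhibitory ratio kept its sign, between 0.59 and 0.86, under the 10 alternatives run for it. A pair of libraries per group, of different sexes in the 2 groups, limits every comparison. Summing Klra3, Klra9 and Klra10 before the counters were compared was chosen after seeing the data.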

Other observations

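Transcripts of further Klra rows were present in every library. Klra14, a pseudogene (Klra14-ps) in GENCODE M21, had 32.6 and 35.5 CPM in dKO, against 41.3 and 30.7 CPM in Ctrl, and its HTSeq count was 4.80 times its RSEM expected count. Klra11, also a pseudogene (Klra11-ps), had 0.965 and 0.894 CPM in dKO, against 1.79 and 2.38 CPM in Ctrl. The 3 pseudogene rows, Klra23, Klra14 and Klra11, thus hold reads of the family that the 9 member rows do not. Klra23 alone had more HTSeq counts than Klra6, Klra5, Klra3 and Klra10 together in each library.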
